A study of Mus musculus with 5 samples.

Results

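Long stretches of clustered open chromatin were described in double positive (DP) thymocytes, the CD4 and CD8 expressing cells of the thymus from which mature T cells arise. A stretch was formed by joining DNaseI regions on chromosomes 1 to 19 that lay 12.5 kb or less apart, edge to edge, and stretches of 15 or more regions were kept. The members were thus selected on the positions of the DNaseI regions alone, and 342 of 17467 stretches met the rule. They held 7717 of the 47907 autosomal DNaseI regions, or 16.1% (95% Wilson interval 15.8 to 16.4%). The cells came from C57/BL6 mice aged 4 to 6 weeks, with no treatment or allele named in the labels. The series describes 5 assays of 1 sample each. Region lists from DNase I digestion and from chromatin immunoprecipitation (ChIP) of HEB and of TCF1 were used, and the H3K9me3 and H3K27ac samples were not analysed here. With no replicate of any assay, no difference between conditions or animals could be tested, and the intervals cover counting error only. Sequencing depth is unknown. Regions of a list are not independent of each other, so intervals over regions are too narrow. The variance of the number per stretch was 1.64 times its mean for HEB and 2.09 times for TCF1. Stretches differ in their number of DNaseI regions, and the part of this in the 2 ratios was not tested.

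DNase I cuts DNA where nucleosomes are displaced, so its hypersensitive sites mark promoters, enhancers and other regulatory DNA in use. Genes that define a cell's identity are often surrounded by many such sites, and joining nearby sites at the distance used here is a common first step in defining super-enhancers. Those are then ranked by a signal such as H3K27ac or Mediator, which was not done here, so the stretches are called only by their rule. HEB, the E protein encoded by Tcf12, binds E-box sequences and is needed for the development of DP thymocytes. TCF1, the HMG-box factor encoded by Tcf7, acts downstream of Notch in T lineage commitment and keeps DP thymocytes alive. The rule did not use the HEB and TCF1 lists, so both could be set against it.

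The stretches took up 0.962% of the autosomal span, 23.1 Mb in all. Within them lay 334 DNaseI regions per Mb, against 16.9 per Mb in the rest of the span, a contrast that the rule itself fixes. A stretch held from 15 to 70 regions with a median of 19 (quartiles 17 and 24). Lengths ran from 22.7 to 191 kb, with a median of 63.1 kb (quartiles 47.4 and 78.7 kb). The summed DNaseI score, which is the authors' whole-number score added over the regions of a stretch and has no stated unit, ran from 238 to 3357 with a median of 587. Most stretches were therefore close to the smallest size allowed, and a few were several times larger. The longest ones were not the most compact: the number of regions per 10 kb had a median of 3.35 and ran from 1.73 to 7.48, and its highest value was in the shortest stretch, chr9:61217057-61239784, singled out after its values were seen (mm9, counted from 1, as are all positions below).

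**Figure D1:**
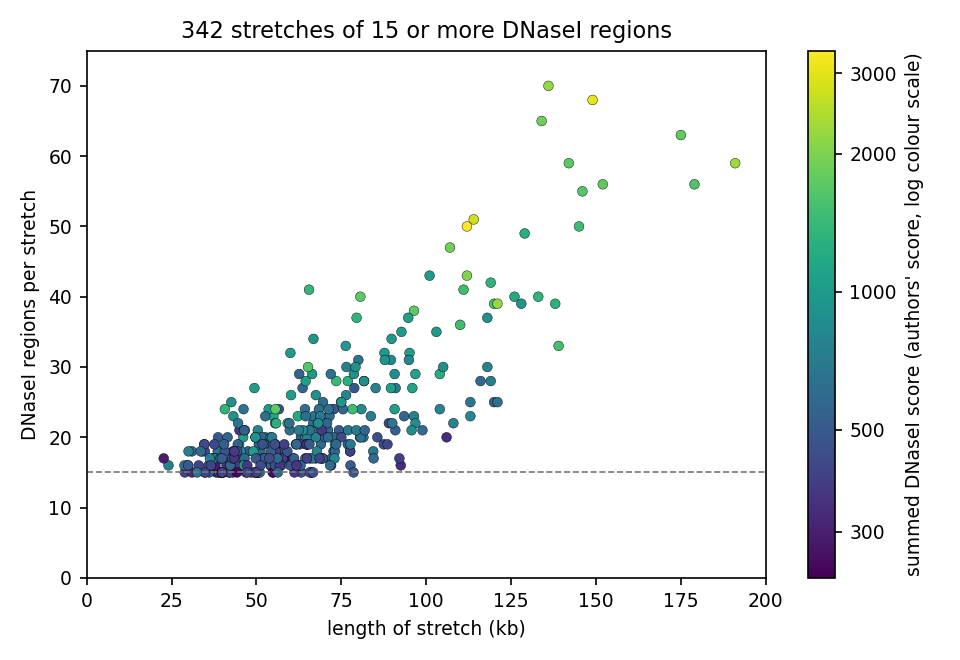
Each point is 1 of the 342 stretches, by its length in kb (x axis) and its number of DNaseI regions (y axis), coloured by its summed DNaseI score; the dashed line is the minimum of 15 regions. Most points lie near the line with a median of 19 regions and 63.1 kb, and the largest stretch reaches 70 regions.

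At the threshold, the 40 stretches of exactly 15 regions had a median length of 47.9 kb and a median summed score of 418. The 58 stretches of 14 regions, just outside, had 46.7 kb and 394. The means were 1.00 HEB and 0.925 TCF1 regions per stretch in those of 15 regions, and 0.828 HEB and 0.983 TCF1 regions in those of 14. The groups on either side of the limit were thus close in size and score. Some gaps also lay close to the joining distance: 41 of the 7375 gaps inside the stretches were within 500 bp below it. Of the 684 gaps that flank them, 22 were within 500 bp above it. The rule itself puts inner gaps at or below this distance and flanking gaps above it.

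Inside a stretch, a few wide and high-scoring regions stood among many narrow ones. DNaseI regions covered a median of 16.7% of the length of a stretch (7.19 to 47.1%), and gaps between neighbouring regions had a median of 1331 bp (quartiles 562 and 3549 bp). Regions of exactly 201 bp, the most frequent width, made up 26.2% of the regions in stretches (25.3 to 27.2%) and 26.4% of the other autosomal regions (26.0 to 26.9%). Regions of 1000 bp or more made up 11.4% in stretches (10.7 to 12.1%) and 5.74% elsewhere (5.52 to 5.97%). The share of regions of 201 bp thus looked alike in both, and the wide end was heavier in stretches. Regions of 202 to 500 bp were fewer in proportion in stretches, 2901 of 7717 against 17599 of 40190 elsewhere. Median widths were 333 bp in stretches and 312 bp elsewhere, and upper quartiles were 656 and 555 bp. A stretch held a median of 2 regions of 1000 bp or more, and up to 13. The highest-scoring region of a stretch carried a median of 19.3% of its summed score, from 6.78 to 49.5%. The share was highest in chr5:150156898-150180954, also singled out after its values were seen, where a region of 3265 bp with a score of 372 lay among 16 in all and carried 2 HEB regions and 1 TCF1 region.

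The stretches were described one by one by rankings: the 10 with the most DNaseI regions, the 5 longest, the 5 with the highest summed score, the 10, 5 and 5 with the most HEB plus TCF1, TCF1 and HEB regions, and the 5 largest with neither factor. For each, the number of DNaseI regions carrying a factor, that is overlapping a factor region by at least 1 bp, was set beside a number at equal width. This number is the sum, over the regions of the stretch, of the share of all autosomal DNaseI regions in the same width decile that carried the factor. The widest decile spans 855 to 7846 bp, and within it wider regions carried factors more often, so the number is only roughly matched and is too low for stretches with many very wide regions. Where a stretch was ranked by a factor, an excess of that factor is fixed by the ranking and is given as a description.

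The stretch with the most DNaseI regions, chr14:54743157-54879348, held 70 of them over 136 kb. It also held the most TCF1 regions, 20, with 1 HEB region. TCF1 lay on 13 of its DNaseI regions, against 4.21 at equal width, and HEB lay on 1, against 2.39. Its TCF1 regions lay close together: 18 of the 20 lay in the first 85 kb, a limit chosen after seeing them, at distances of 0.589 to 8.24 kb from one to the next with a median of 2.30 kb. No HEB region lay among these 18. The DNaseI regions under TCF1 were mostly narrow here, with a median of 380 bp, against 1042 bp over all TCF1-carrying regions of the 342 stretches. The other 7 TCF1 regions of this stretch lay in gaps between DNaseI regions. Its highest-scoring DNaseI region, chr14:54845340-54848697 (3358 bp, score 555), made up 25.1% of the summed score and carried the only HEB region together with 1 TCF1 region.

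The stretch with the most HEB regions, chr6:71246028-71360323, was built differently. It held 51 DNaseI regions over 114 kb, covered to 33.3%, with 12 HEB and 8 TCF1 regions and the third highest summed score, 2768. HEB lay on 12 DNaseI regions, against 2.71 at equal width, TCF1 on 8, against 4.47, and 6 carried both. The 12 regions under HEB were 371 to 3459 bp wide, with a median of 1091 bp, and the HEB regions lay between 6.4 and 100 kb from its start. Its highest-scoring region, chr6:71271747-71276970 (5224 bp, score 483, 17.4% of the summed score), carried 1 TCF1 region and no HEB region.

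**Figure D2:**
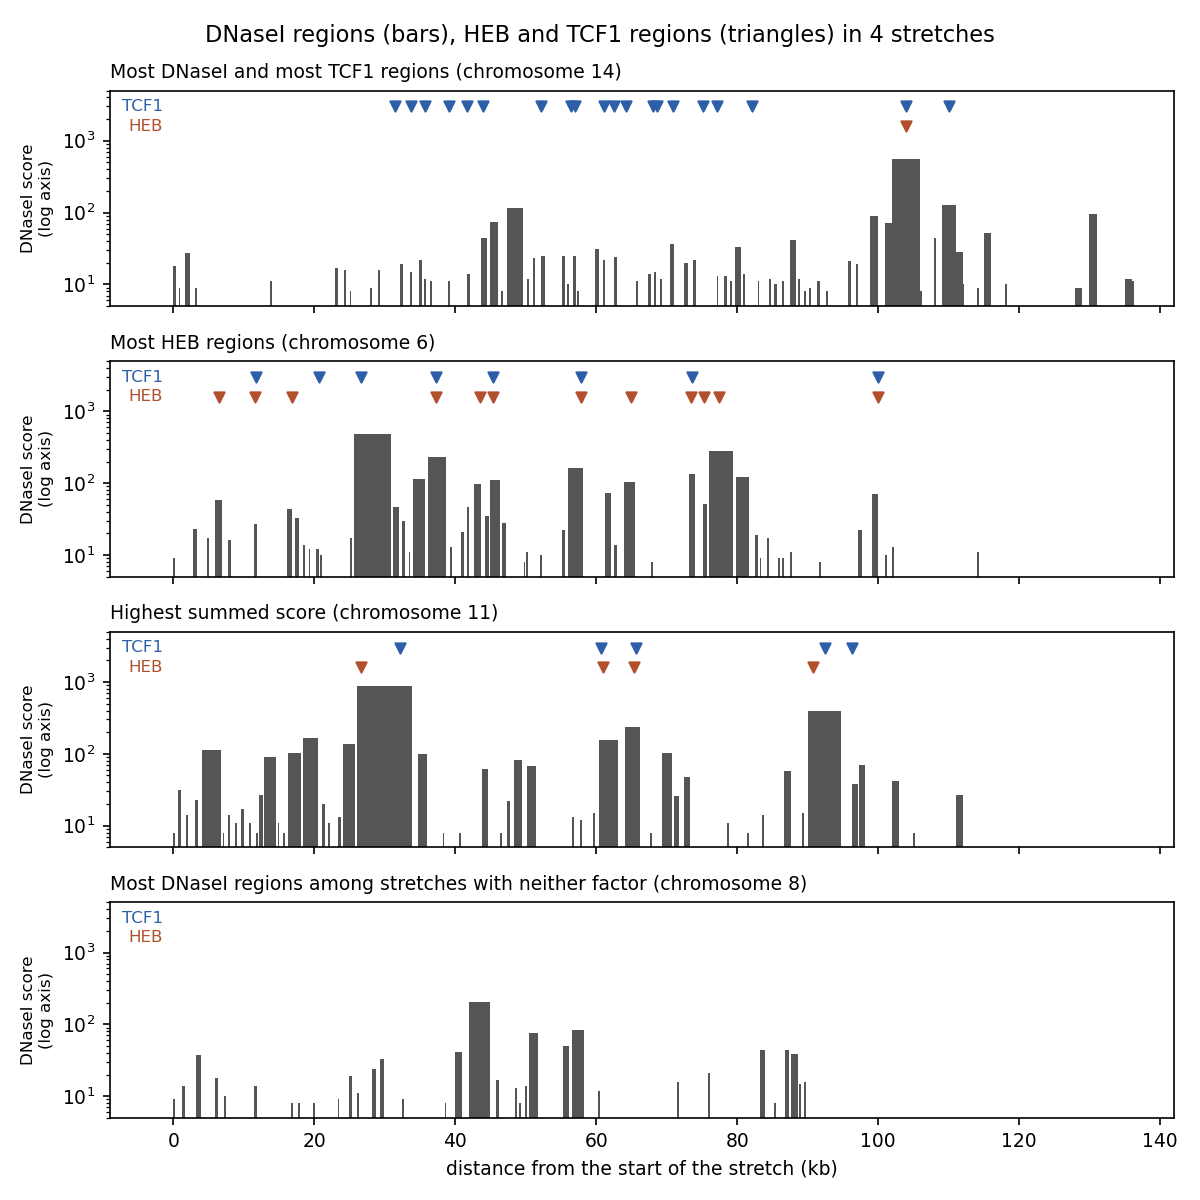
Positions in 4 stretches, as distance in kb from the start of each (x axis); bars are DNaseI regions with their score on a log axis (narrow ones drawn 0.25 kb wide), and triangles are TCF1 (upper row) and HEB regions (lower row). The chromosome 14 stretch has 20 TCF1 regions and 1 HEB region, the chromosome 6 stretch 8 and 12, the chromosome 11 stretch 5 and 4, and the chromosome 8 stretch none of either.

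The highest summed score, 3357, belonged to chr11:52062328-52174037, with 50 DNaseI regions over 112 kb that covered 41.5% of it. Its top region, chr11:52088379-52096224, was 7846 bp wide with a score of 871, or 25.9% of the sum, and carried 1 region of each factor. All 4 DNaseI regions with HEB in this stretch also carried TCF1, which lay on 5 in all; the numbers at equal width were 3.02 and 4.95. Second by score and by number of regions came chr15:97535640-97684877, with 68 regions over 149 kb, a summed score of 3045, 6 HEB and 5 TCF1 regions. Its top region, chr15:97556794-97562409 (5616 bp, score 379), made up 12.4% of the sum and carried 1 of each factor. HEB lay on 5 DNaseI regions of this stretch, against 3.45 at equal width, and TCF1 on 5, against 5.52.

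Other very large stretches differed in their factor regions. The third by number of regions, chr12:109122693-109256980, held 65 DNaseI regions over 134 kb and 9 of them were 1000 bp or wider. HEB lay on 1 of its regions, against 2.88 at equal width, and TCF1 on 2, against 4.87. No single region dominated it, since the top one, chr12:109164290-109165512 (1223 bp, score 127), made up 6.78% of the summed score, the lowest share of any of the 342. The longest stretch, chr4:135572325-135763366, spanned 191 kb with 59 regions and had 3 HEB and 5 TCF1 regions, with HEB on 2 DNaseI regions against 3 at equal width and TCF1 on 5 against 4.93. Of its 13 regions of 1000 bp or more, the top one, chr4:135731770-135735117 (3348 bp, score 245, 10.7% of the sum), carried 2 HEB regions and 1 TCF1 region. The second longest, chr8:122980031-123158829 at 179 kb, held 56 regions with 5 HEB and 3 TCF1 regions. HEB lay on 5 DNaseI regions, against 2.85 at equal width, and TCF1 on 2, against 4.74, both of which also carried HEB. Its top region, chr8:123067411-123069210 (1800 bp, score 153), made up 9.50% of the sum.

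In chr7:71028872-71203638, the third longest at 175 kb, the balance leaned to HEB. Its 63 DNaseI regions held 8 HEB and 5 TCF1 regions, with HEB on 8 DNaseI regions against 2.49 at equal width and TCF1 on 4 against 4.29. Its top region, chr7:71143895-71145112 (1218 bp, score 183), made up 10.4% of the sum and carried 1 of each. Completing the 10 with the most DNaseI regions, chr11:117086043-117227960 held 59 (4 HEB, 2 TCF1), chr16:10638883-10790428 held 56 (4 HEB, 6 TCF1) and chr11:117709595-117855899 held 55 (5 HEB, 2 TCF1). Each of these 3 had HEB on 4 DNaseI regions, against 2.49, 2.63 and 1.97 at equal width, and TCF1 on 2, 4 and 2, against 4.24, 4.42 and 3.4.

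Further stretches entered through their factor regions. In chr11:115264782-115376595, 43 DNaseI regions held 6 HEB and 7 TCF1 regions, and 4 carried both. Its top region, chr11:115267607-115270372 (2766 bp, score 294, 14.3% of the sum), carried 1 HEB and 2 TCF1 regions. HEB lay on 5 DNaseI regions of this stretch, against 2.4 at equal width, and TCF1 on 5, against 3.97. In chr5:66240442-66347545, 47 regions held 6 of each factor, and 5 of the 6 DNaseI regions with HEB carried TCF1 too. The numbers at equal width were 2.39 for HEB and 4.05 for TCF1, which also lay on 6. TCF1 regions outnumbered HEB regions in chr17:47628184-47748842, with 7 TCF1 and 3 HEB regions on 39 DNaseI regions whose top one, chr17:47677896-47680822 (2927 bp, score 253), made up 11.5% of the sum. There TCF1 lay on 7 DNaseI regions, against 4.58 at equal width, and HEB on 3, against 2.79. In chr9:43816710-43954320 (7 TCF1, 4 HEB, 39 DNaseI regions) TCF1 lay on 6, against 3.2, and HEB on 4, against 1.85. In chr12:108354393-108474305 (6 TCF1, 4 HEB, 39 DNaseI regions) TCF1 lay on 4, against 3.05, and HEB on 4, against 1.84. These stretches were ranked by their factor regions, so values above the numbers at equal width are description only. In chr11:87529425-87585049, which was ranked by its TCF1 regions, 24 DNaseI regions over 55.6 kb held 7 TCF1 regions and no HEB region. TCF1 lay on 6 of them there, against 2.22 at equal width, and HEB on 0, against 1.31.

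Neither factor was listed in 40 of the 342 stretches, or 11.7% (8.71 to 15.5%). This share depends on the limits used: it was 29.5% with HEB and TCF1 scores above the median, 19.5% of stretches of 10 or more regions and 6.45% with DNaseI scores above the median. Taken singly, 9.51% of DNaseI regions in stretches carried HEB, TCF1 or both (8.88 to 10.2%), and 8.05% of the others did (7.78 to 8.32%). Neither was listed in 16% of stretches of 15 to 19 regions (11.3 to 22.2%) and 7.63% of those of 20 to 29 (4.06 to 13.9%). In those of 30 or more the share was 6.12% (2.1 to 16.5%). The part of the number of regions in this share was not tested. The largest stretch with neither factor, chr8:126754878-126844726, held 34 DNaseI regions over 89.8 kb with a summed score of 962. The numbers at equal width for it were 1.37 regions with HEB and 2.31 with TCF1, so few were missing in absolute number. Its top region, chr8:126796747-126799825 (3079 bp, score 207), made up 21.5% of the sum. The next were chr11:98761763-98851344 with 31 regions, chr17:34203844-34283037 with 30, chr2:3627904-3691501 with 27 and chr6:146353893-146410537 with 24. The top regions of the first 2 of these had scores of 163 and 135, for 19.9% and 15.1% of the sum. In the order named from chr11:98761763-98851344, the numbers at equal width were 1.21, 1.1, 0.758 and 0.608 for HEB. For TCF1 they were 2.17, 1.89, 1.38 and 1.13. As a group, stretches with neither factor were somewhat smaller: medians were 17.5 regions, 54.2 kb and a summed score of 480, against 20 regions, 64.6 kb and 600 in the 302 with a factor. Absence from a list does not show absence of binding, since the thresholds of the lists are unknown.

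Most stretches held at least 1 factor region. HEB was found in 239 of 342 (69.9%, 64.8 to 74.5%), TCF1 in 251 (73.4%, 68.5 to 77.8%) and both in 188 (55.0%, 49.7 to 60.2%). HEB without TCF1 was found in 51 and TCF1 without HEB in 63. Counted per DNaseI region, the shares over all autosomal regions were 3.46% for HEB and 6.12% for TCF1. Of the 58 stretches of 14 regions, just outside the rule, 53.4% held HEB (40.8 to 65.7%) and 65.5% held TCF1 (52.7 to 76.4%). The part of the number of regions in the shares of stretches was not tested. Larger stretches held a factor more often: HEB was in 58.3% of stretches of 15 to 19 regions (50.9 to 65.3%), 80.5% of those of 20 to 29 (72.4 to 86.6%) and 85.7% of those of 30 or more (73.3 to 92.9%). The corresponding TCF1 shares were 69.1% (61.9 to 75.5%), 73.7% (65.1 to 80.8%) and 87.8% (75.8 to 94.3%). Per DNaseI region, HEB was carried by 5.1% (4.36 to 5.95%), 5.79% (4.97 to 6.72%) and 6.17% (5.2 to 7.3%) and TCF1 by 5.91% (5.12 to 6.82%), 6.04% (5.21 to 7%) and 6.51% (5.52 to 7.66%) in these classes, with overlapping intervals.

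The mean per stretch was 1.44 HEB regions (SD 1.54 over 342 stretches) and 1.51 TCF1 regions (SD 1.77). TCF1 was the more numerous in 119 stretches, HEB in 122, and 61 held equal numbers above 0. Where both factors were present, they shared at least 1 DNaseI region in 125 of 188 stretches, or 66.5% (59.5 to 72.8%), and in the other 63 they lay on different regions or in gaps. DNaseI regions carrying both made up 1.29% of all autosomal DNaseI regions. Among DNaseI regions with HEB, 39.6% carried TCF1 in stretches (35.1 to 44.3%) and 36.5% elsewhere (33.9 to 39.3%). The part of these shares in the share of stretches was not tested. Counts of 5 or more of each factor were reached in 5 stretches. TCF1 reached 5 or more with at most 1 HEB region in 7 stretches, and HEB did so with at most 1 TCF1 region in 3. Across the 342 stretches, the HEB and TCF1 counts had a Spearman's rho of 0.289 (Pearson's r 0.358), given as a description since both counts also followed the size of the stretch. With the number of DNaseI regions, rho was 0.310 for HEB and 0.283 for TCF1, and with the summed score 0.379 and 0.436. With regions per 10 kb it was 0.0577 and 0.0298, and with length 0.251 and 0.235. Regions per 10 kb is the number of regions over the length, and compactness at equal length was not tested.

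**Figure D3:**
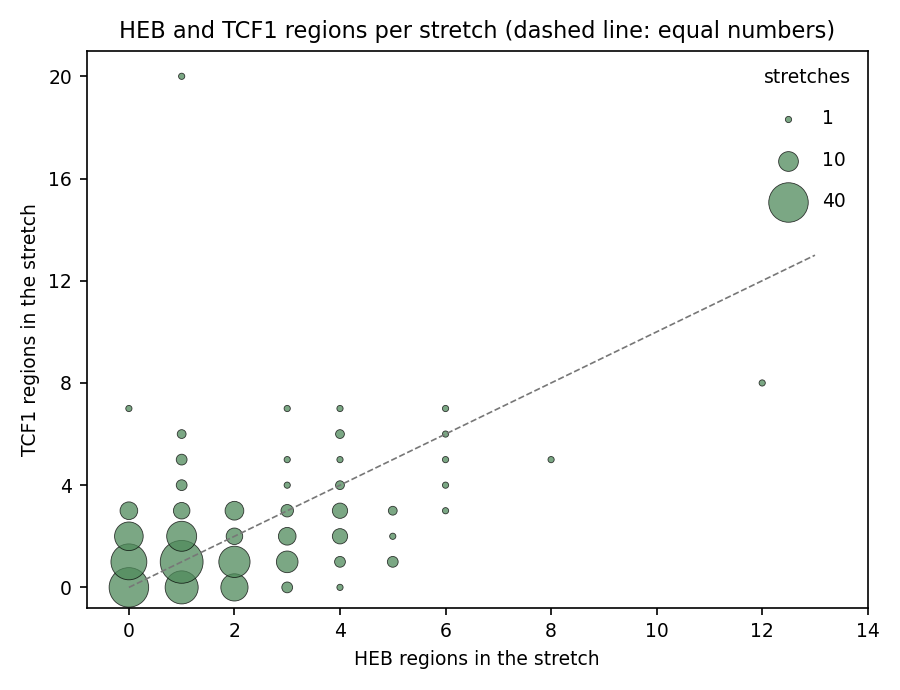
HEB (x axis) and TCF1 regions (y axis) per stretch, with the area of a circle for the number of stretches and a dashed line for equal numbers. Most of the 342 stretches lie at 0 to 2 of each, with the chromosome 14 stretch at 20 TCF1 regions and the chromosome 6 stretch at 12 HEB regions as the farthest points.

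Region by region, HEB and TCF1 differed in how they related to the stretches. HEB was carried by 434 of the 7717 DNaseI regions in stretches, or 5.62% (5.13 to 6.16%), against 1223 of the other 40190, or 3.04% (2.88 to 3.22%). Over all autosomal DNaseI regions the share was 3.46%. TCF1 was carried by 472 in stretches, or 6.12% (5.60 to 6.67%), and by 2458 of the others, also 6.12% (5.89 to 6.35%), which is the share of 6.12% over all autosomal DNaseI regions. The difference between stretches and other regions was 2.58 percentage points for HEB (95% Newcombe interval 2.06 to 3.14) and 0.000417 points for TCF1 (-0.565 to 0.603). Without the stretch richest in HEB the HEB share in stretches was 5.50%, and without the one richest in TCF1 the TCF1 share was 6.00%. Chromosome by chromosome, the HEB share was higher in stretches than elsewhere on 19 of 19 autosomes, and the TCF1 share on 10 of 19. None of these shares is adjusted for width. Standardised over chromosome and width deciles, the difference was 1.87 points for HEB (1.35 to 2.4) and -1.22 points for TCF1 (-1.79 to -0.645).

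The HEB share went up with the size of the stretch, also below the limit of 15 regions. It was 2.29% (2 to 2.63%) among DNaseI regions that stood alone, 2.33% (2.12 to 2.57%) in stretches of 2 to 4, 4.05% (3.69 to 4.45%) in those of 5 to 9, 4.86% (4.27 to 5.53%) in those of 10 to 14 and 5.62% in the long stretches. The TCF1 share over the same classes was 6.37% (5.87 to 6.91%), 5.75% (5.41 to 6.11%), 6.29% (5.84 to 6.78%), 6.62% (5.93 to 7.38%) and 6.12%, with no such order. Isolated regions thus carried TCF1 about as often as regions of long stretches, with width left aside. Regions of 1000 bp or more made up 4.1%, 4.65%, 7.51%, 8.96% and 11.4% of regions over the same classes. The part of width in the shares by class was not tested. DNaseI regions carrying both factors made up 0.729% (0.569 to 0.933%) of isolated regions and 2.23% (1.92 to 2.58%) of those in long stretches, where all autosomal regions had 1.29%.

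**Figure D4:**
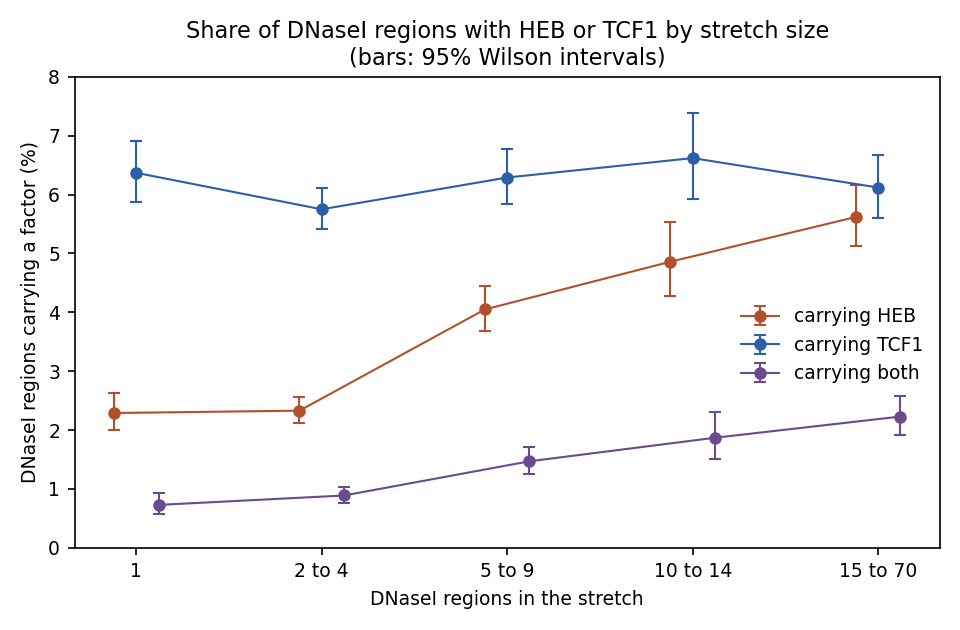
Share of DNaseI regions carrying HEB, TCF1 or both (y axis, percent, bars for 95% Wilson intervals) by the number of DNaseI regions in their stretch (x axis). HEB goes from 2.29% for isolated regions to 5.62% in stretches of 15 or more, whereas TCF1 lies between 5.75% and 6.62% throughout. The shares are not adjusted for width.

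Width had to be considered, because wide DNaseI regions carried either factor more often and were more frequent in stretches. The pattern of HEB was strongest among wide regions. Of regions of 1001 to 2000 bp, 23.6% carried HEB in stretches (20.7 to 26.8%, 171 of 724) and 13.7% elsewhere (12.3 to 15.2%, 294 of 2150). Above 2000 bp these shares were 49.0% (41.3 to 56.8%) and 36.7% (29.4 to 44.6%), with overlapping intervals. At 202 to 500 bp they were 1.38% (1.01 to 1.87%) and 1.48% (1.31 to 1.67%), and at 201 bp or less 0.296% (0.136 to 0.645%) and 0.734% (0.589 to 0.915%), with overlapping intervals.

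For TCF1, regions of equal width carried less in stretches up to 1000 bp. At 201 bp or less the shares were 0.296% in stretches (0.136 to 0.645%) and 0.875% elsewhere (0.715 to 1.07%). They were 1.72% in stretches (1.31 to 2.26%) and 3.64% elsewhere (3.37 to 3.92%) at 202 to 500 bp, and 8.83% (7.64 to 10.2%) and 11.2% (10.6 to 11.9%) at 501 to 1000 bp. At 1001 to 2000 bp they were 22.9% (20.0 to 26.1%) and 26.7% (24.9 to 28.6%), and above 2000 bp 52.3% (44.4 to 60.0%) and 44.7% (36.9 to 52.7%), with overlapping intervals in both classes. Standardised over width deciles, the difference between stretches and other regions was 1.76 points for HEB (1.24 to 2.29) and -1.47 points for TCF1 (-2.04 to -0.893). The equal TCF1 shares of the unadjusted comparison thus stood beside a lower share over width deciles and a larger share of wide regions in stretches. Summed over the 342 stretches, 434 DNaseI regions carried HEB against 332 at equal width, a ratio of 1.31, and 472 carried TCF1 against 568, a ratio of 0.831. Unlike the standardised differences, the numbers at equal width include the regions in stretches, so these ratios are less extreme than against other regions alone. The widest decile, 855 to 7846 bp, is only roughly matched. In it HEB was carried by 24.3% in stretches and 13.3% elsewhere, and TCF1 by 24.4% and 24.5%.

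**Figure D5:**
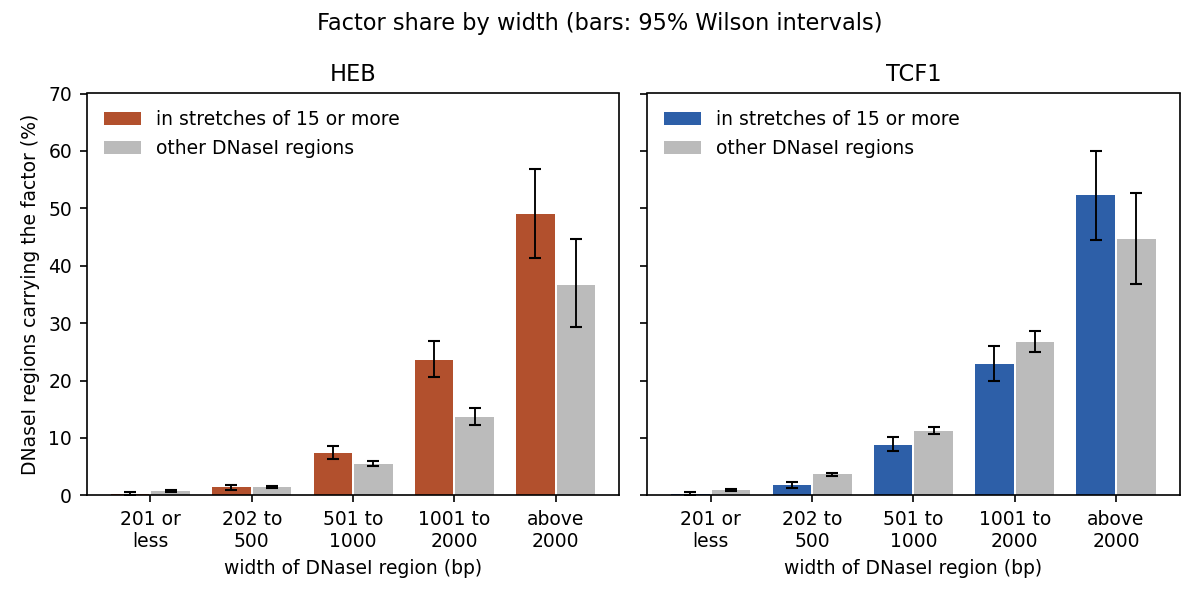
Share of DNaseI regions carrying HEB (left) and TCF1 (right) by width class (x axis, bp), for regions in stretches of 15 or more (coloured, left bar of each pair) and other autosomal DNaseI regions (grey); error bars are 95% Wilson intervals. For HEB the coloured bars exceed the grey ones from 501 bp upwards, and for TCF1 they lie below up to 2000 bp, with overlapping intervals at 1001 to 2000 bp.

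The HEB side of co-occupancy also differed. Of DNaseI regions with TCF1, 36.4% carried HEB in stretches (32.2 to 40.9%, 172 of 472), against 18.2% elsewhere (16.7 to 19.8%, 447 of 2458). Of DNaseI regions with HEB, 39.6% carried TCF1 in stretches (35.1 to 44.3%) and 36.5% elsewhere (33.9 to 39.3%). Regions with a factor were wider in stretches, with medians of 1114 bp for HEB and 1042 bp for TCF1, against 714 and 693 bp elsewhere, and the part of width in these co-occupancy shares was not tested.

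Among the 342 top regions by score, 133 carried HEB (38.9%, 33.9 to 44.2%), 150 carried TCF1 (43.9%, 38.7 to 49.2%) and 91 carried both (26.6%, 22.2 to 31.5%). Another 150 carried neither. All autosomal DNaseI regions had 3.46% with HEB, 6.12% with TCF1 and 1.29% with both. However, these top regions were wide, with a median of 1522 bp and an upper quartile of 2032 bp. Regions of 1001 to 2000 bp in stretches carried HEB in 23.6%, TCF1 in 22.9% and both in 9.94% of cases. Above 2000 bp these shares were 49%, 52.3% and 38.7%. The part of width in the shares of top regions was not tested. The edges of a stretch carried less: of the 684 first and last regions, 3.51% had HEB (2.37 to 5.17%) and 3.95% TCF1 (2.73 to 5.68%), against 5.83% (5.31 to 6.4%) and 6.33% (5.78 to 6.92%) of the 7033 regions between them. Median widths were 332 bp for end and 333 bp for inner regions, and 10.5% (8.44 to 13.1%) and 11.5% (10.8 to 12.3%) were 1000 bp or wider. Above 1000 bp, HEB was carried by 19.7% of end regions (12.1 to 30.4%, 14 of 71) and 28.8% of inner ones (25.8 to 32.1%), with overlapping intervals. TCF1 was carried by 14.1% (7.83 to 24%, 10 of 71) and 29.3% (26.3 to 32.6%) of these. Up to 1000 bp the intervals overlapped for both factors, with HEB on 1.63% (0.888 to 2.98%) and 2.84% (2.46 to 3.29%) and TCF1 on 2.77% (1.74 to 4.4%) and 3.34% (2.92 to 3.82%).

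Seen from the factors, the stretches held 492 of 4815 autosomal HEB regions, or 10.2% (9.39 to 11.1%), and 515 of 3511 TCF1 regions, or 14.7% (13.5 to 15.9%). With factor scores above the median these shares were 18.2% (16.6 to 20%) for HEB and 17.2% (15.3 to 19.2%) for TCF1, with overlapping intervals and the order of the factors turned round. Nearly all of them lay on DNaseI regions: 92.3% of HEB regions in stretches did so (89.6 to 94.3%), against 28.8% of those outside (27.5 to 30.2%), and for TCF1 these shares were 95.1% (92.9 to 96.7%) and 83.5% (82.2 to 84.8%). Part of this follows from the rule, since DNaseI regions cover far more of a stretch than of other sequence. In gaps of stretches the density of HEB regions was 1.99 per Mb (95% Poisson interval 1.41 to 2.73, 38 regions), against 1.30 per Mb (1.26 to 1.35) in sequence outside both stretches and DNaseI regions. For TCF1 it was 1.31 per Mb (0.848 to 1.93, 25 regions), against 0.208 per Mb (0.190 to 0.228). The chromosome 14 stretch alone supplied 7 of these 25 TCF1 regions, and without it the density was 0.949 per Mb (0.562 to 1.5). The TCF1 regions in gaps lay a median of 315 bp from the nearest DNaseI region and the HEB regions a median of 756 bp. Those outside both stretches and DNaseI regions lay a median of 5735 bp (TCF1) and 61109 bp (HEB) away. Gaps of stretches lie near DNaseI regions by the rule, and unmappable sequence was not masked. The part of either in the densities was not tested.

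HEB regions on DNaseI regions of stretches had a median HEB score of 15.5 (quartiles 12 and 22, 454 regions), against 13 (11 and 19, 1246 regions) on other DNaseI regions. For TCF1 regions the median TCF1 score was 11 in both places (quartiles 9 and 15 in stretches, 9 and 14 elsewhere). DNaseI regions with HEB were wider in stretches (medians 1114 and 714 bp), and the part of width in the HEB scores was not tested. In gaps of stretches the median HEB score was 10, as it was outside stretches and DNaseI regions.

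Stretches occurred on all 19 autosomes, and most densely on chromosome 11, which held 48 of the 342, or 0.404 per Mb (95% Poisson interval 0.298 to 0.536). There 23.9% of the DNaseI regions lay in stretches. The lowest density was 0.0386 per Mb (0.0142 to 0.0839) on chromosome 3, with 6 stretches that held 6.41% of its DNaseI regions. The HEB share in stretches ran from 3.75% on chromosome 14 to 8.94% on chromosome 7, where other DNaseI regions had 2.70% and 2.65%. The TCF1 share in stretches ran from 4.39% on chromosome 10 to 8.81% on chromosome 16, where other regions had 7.60% and 6.25%. These shares by chromosome are not adjusted for width.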

How the data were processed

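The 3 region lists were made by the authors and hold positions with a whole-number score. What the authors' score measures is unstated, so it was compared only within a list. The submitters' processing notes list HOMER 6.1 and the build mm9, with no role. The sources used here name no aligner, threshold, control or read total. The gene table at hand is of another build (GRCm38.p6), so stretches were given no gene names, sequences or motifs.

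DNaseI regions on chromosomes 1 to 19 were joined at gaps of up to 12500 bp. Overlap meant at least 1 bp. Shares carry 95% Wilson intervals, differences Newcombe's and densities exact Poisson intervals. Width deciles kept equal widths together, and standardised differences used weights from the stretches. Code was tested on simulated lists with known answers. No significance test was run. Stretches were named by the rankings listed in the text. Alternatives changed the joining gap, the minimum number of regions, score minimums, the overlap rule and the standardisation. The rule, rankings and classes were chosen with earlier results of these data known. Python 3.11.15, numpy 2.4.6, scipy 1.17.1 and pandas 2.3.3 were used.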

Additional observations from a re-analysis of the deposited data

How the results depend on the processing

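The 11 results were recomputed under 12 settings, 4 of them (standardisation other than by width deciles) chosen after seeing the data. Of 81 values, 35 stayed within the interval of the reported one, or within 1.5 times for the number of stretches, 46 moved beyond it, and 0 changed sign where the reported interval left out 0. The size of the set follows its limits by construction. With a gap of 10 kb, stretches held 11.7% of autosomal DNaseI regions, 11% of TCF1 and 7.71% of HEB regions, at a median length of 50.7 kb; with 15 kb these values were 20.3%, 17.9%, 12.6% and 71.3 kb. With 10 or more regions, 727 stretches held 25.5%, 24.3% and 15.4%, at 46.0 kb, and 19.5% of them had neither factor. With 20 or more, 167 held 9.97%, 9.34% and 6.50%, at 76.5 kb, 7.19% with neither. DNaseI scores above the median left 31 stretches with 2.69% of those regions, 2.53% of TCF1 and 1.70% of HEB regions, at 76.5 kb, 6.45% with neither. Their regions carried TCF1 in 11.5%, HEB in 12.3% and both in 5.28% of cases, and the HEB difference was 6.12 points. HEB and TCF1 scores above the median gave 2.85% with TCF1, 4.35% with HEB and 1.05% with both, put 17.2% of TCF1 and 18.2% of HEB regions in stretches and left 29.5% of stretches with neither.

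The HEB difference was 1.76 points over width deciles, 1.43 over 50 width bands, 2.01 over score deciles, 1.84 over width and score deciles and 1.87 over chromosome and width deciles. The TCF1 difference was -1.47, -1.85, -1.22, -1.11 and -1.22 points in that order, so it was below 0 in each of these 5, whereas without standardisation it ran from -0.286 (gap of 15 kb) to 0.412 points (factor scores above the median, 0.0309 to 0.834). No paired analysis was possible because each assay has 1 sample, and for the same reason no replicate could be left out. Depth is unknown, which limits what a region missing from a list can show.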

Other observations

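The X chromosome, which the rule leaves out, held 409 DNaseI regions, and its largest stretch under the same joining distance had 11, so none would have reached 15. Of 323 neighbouring pairs on a chromosome, 31 lay within 50 kb of each other and 153 within 1000 kb, with a median distance of 1166 kb. DNaseI regions with HEB carried 2 or more HEB regions in 4.61% of cases in stretches (3.00 to 7.01%, 20 of 434), against 1.88% elsewhere (1.26 to 2.81%, 23 of 1223). For TCF1 these shares were 3.60% (2.26 to 5.69%, 17 of 472) and 1.83% (1.37 to 2.44%, 45 of 2458). Regions with a factor were wider in stretches, and the part of width in these shares was not tested.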
